A study of Mus musculus with 6 samples.

Results

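Nucleoporins and nuclear transport receptors are the genes of the nuclear pore and of the carriers that pass through it. They were taken as the rows of the count table whose symbol is Nup followed by a number, Kpna or Kpnb with a number, Ipo with a number, Xpo with a number or t, or Tnpo with a number. The rule matched 44 of 55494 rows, 20 nucleoporin genes and 24 receptor genes. Of these, 42 passed the filter on low counts. Kpna7, an importin alpha of oocytes and embryos, had 8 reads over all 6 libraries, the pseudogene Kpna2-ps had 0, and neither was tested.

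The libraries were made from poly(A) RNA of primary muscle stem cells, which give rise to new muscle fibres after injury. The cells came from mice of wild-type genotype and were cultured for 2 days without (3 control libraries) or with 11,12-EET (3 EET libraries), an epoxide of arachidonic acid made by cytochrome P450 enzymes. The sources used here give neither the dose and vehicle nor the purity of the isolated cells. Whether the 3 libraries per group stem from different animals or cultures is not stated, so each p-value reflects variation among these libraries alone, possibly technical.

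Library totals ran from 30371291 to 37243882 counts. All 9 muscle stem cell markers examined were detected, and 5 of them were higher and 1 lower with EET. Myod1, the myogenic determination factor, rose from 944 to 1025 CPM in the controls (counts relative to the TMM-adjusted library size) to 1148 to 1175 CPM, and Pax7, the marker of quiescent and cycling stem cells, fell from 109 to 118 CPM to 81.9 to 85.2 CPM. Calls in this paragraph are as counted unless said otherwise, where 24.6% of all tested genes were called higher and 23.3% lower. In the second fit described below, with the trend of mRNA length and GC content removed, Myod1 was called lower and Des higher. Pax7, Myf5, Msc and Sdc4 were not called in that fit. Markers of other cells were present at lower sums. Summed over 6 endothelial markers, the level was 258 to 274 CPM in controls and 141 to 163 CPM with EET, and 5 of the 6 fell. The summed levels of 5 pericyte and smooth muscle markers were 156 to 175 CPM in controls and 104 to 110.1 CPM with EET (3 fell, 1 rose). For 6 macrophage and leukocyte markers the sums were 289 to 319.8 and 181 to 359.9 CPM (2 fell), for 4 Schwann cell markers 172 to 177 and 139 to 159 CPM (3 fell, 1 rose), and for 6 fibro-adipogenic markers 347 to 350.0 and 330.3 to 343 CPM (1 fell). The erythroid sum was 1.5 to 42.1 CPM in the controls and 2 to 23.5 CPM with EET, with no call. No marker list was at 0. Fewer cells of a type and less RNA per cell cannot be told apart in bulk RNA, and the part of these cells in the results was not tested.

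The nuclear pore is a ring-shaped assembly of many copies of each nucleoporin that joins nucleus and cytoplasm. Structured nucleoporins build an outer ring (the Y complex) and an inner ring, and nucleoporins rich in phenylalanine-glycine (FG) repeats fill the channel and extend to the cytoplasmic filaments and the nuclear basket. Importins of the beta family carry cargo in, some through an importin alpha adaptor that reads the classical nuclear localization signal, and exportins carry cargo out. The GTPase Ran sets the direction, because Ran-GTP, made in the nucleus, releases import cargo and is needed to bind export cargo. In muscle, Nup210 is known to be needed for myoblast differentiation.

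Promoter windows from 250 bases before to 50 after the gene's start (RefSeq, GRCm38.p6) were matched to 33 of the 42 tested members. The windows had a median GC content of 65.3%, against 52.7% over all 27025 windows, and a median of 28 CG pairs against 7. The shares of letters below are set against all windows, not against windows of similar composition or of expressed genes. A palindromic site of the transcription factor NRF1, whose letters are the longest run of capitals in the Nup107 and Nup62 sequences, was found in 4 member windows (12.1%; Nup107, Nup50, Nup62 and Xpo5) and in 0.981% of all windows. The 80 bases before the start are shown for 3 nucleoporins, Nup107 and Nup62 because they hold this palindrome and Nup160 because these 80 bases hold none of the letters searched for. Capitals mark the NRF1 palindrome, the ETS letters CCGGAAG, the GC box letters GGGCGG and the CCAAT letters, each searched on both strands, and nothing in capitals means only that none of these letters is in the stretch.
Nup107 (chr10:117792706-117792785, minus strand): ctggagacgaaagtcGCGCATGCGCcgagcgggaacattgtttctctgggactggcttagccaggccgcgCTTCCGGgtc
Nup62 (chr7:44816008-44816087, plus strand): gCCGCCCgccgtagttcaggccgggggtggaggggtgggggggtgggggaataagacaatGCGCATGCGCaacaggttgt
Nup160 (chr2:90677135-90677214, plus strand): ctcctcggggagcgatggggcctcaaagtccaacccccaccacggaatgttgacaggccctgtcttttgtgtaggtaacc
The palindrome begins 65 bases before the start in Nup107 and 20 bases before it in Nup62. CCGGAAG was in 18.2% of member windows and 9.14% of all, GGGCGG in 69.7% and 35.9%, CCAAT in 54.5% and 38%, and the TATA letters TATAAA in 6.06% and 14.2%.

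Most transport receptors and large nucleoporins were lower with EET as counted, and a few short ones were higher. Of the 42 tested members 28 fell and 6 rose (quasi-likelihood test of edgeR, adjusted p under 0.05 by Benjamini-Hochberg over 16097 genes), while 23.3% of all tested genes were called lower and 24.6% higher. Among receptors 19 of 22 fell and 2 rose, and among nucleoporins 9 of 20 fell and 4 rose. No member changed by 2-fold as counted. Below, a value with ± beside an adjusted p is the log2 fold change as counted with its SE, and CPM means with ± carry the SD (n = 3). Of the 28 members that fell, control 1 was the lowest control for 27 and EET 3 the highest EET library for all 28. Without both libraries 29 members were called lower and 8 higher. Leaving out the libraries nearest the other group makes such falls larger by construction, so these counts are no test of them. The shares of all genes for this order and this fit are not given here. All 3 EET libraries lay below all 3 controls for 29 members, where this held for 28.0% of all genes, and above them for 8 members, where it held for 29.6%. The median log2 fold change of the members was −0.35, beside 0.005 over all genes tested. Summed over the 24 receptor rows, the level was 6610.3, 7177 and 6993 CPM in the controls and 5173, 5464 and 5849.5 CPM with EET. The sum over the 20 nucleoporins was 2435, 2603 and 2596 CPM in the controls and 2146, 2145 and 2256 CPM with EET.

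**Figure D1:**
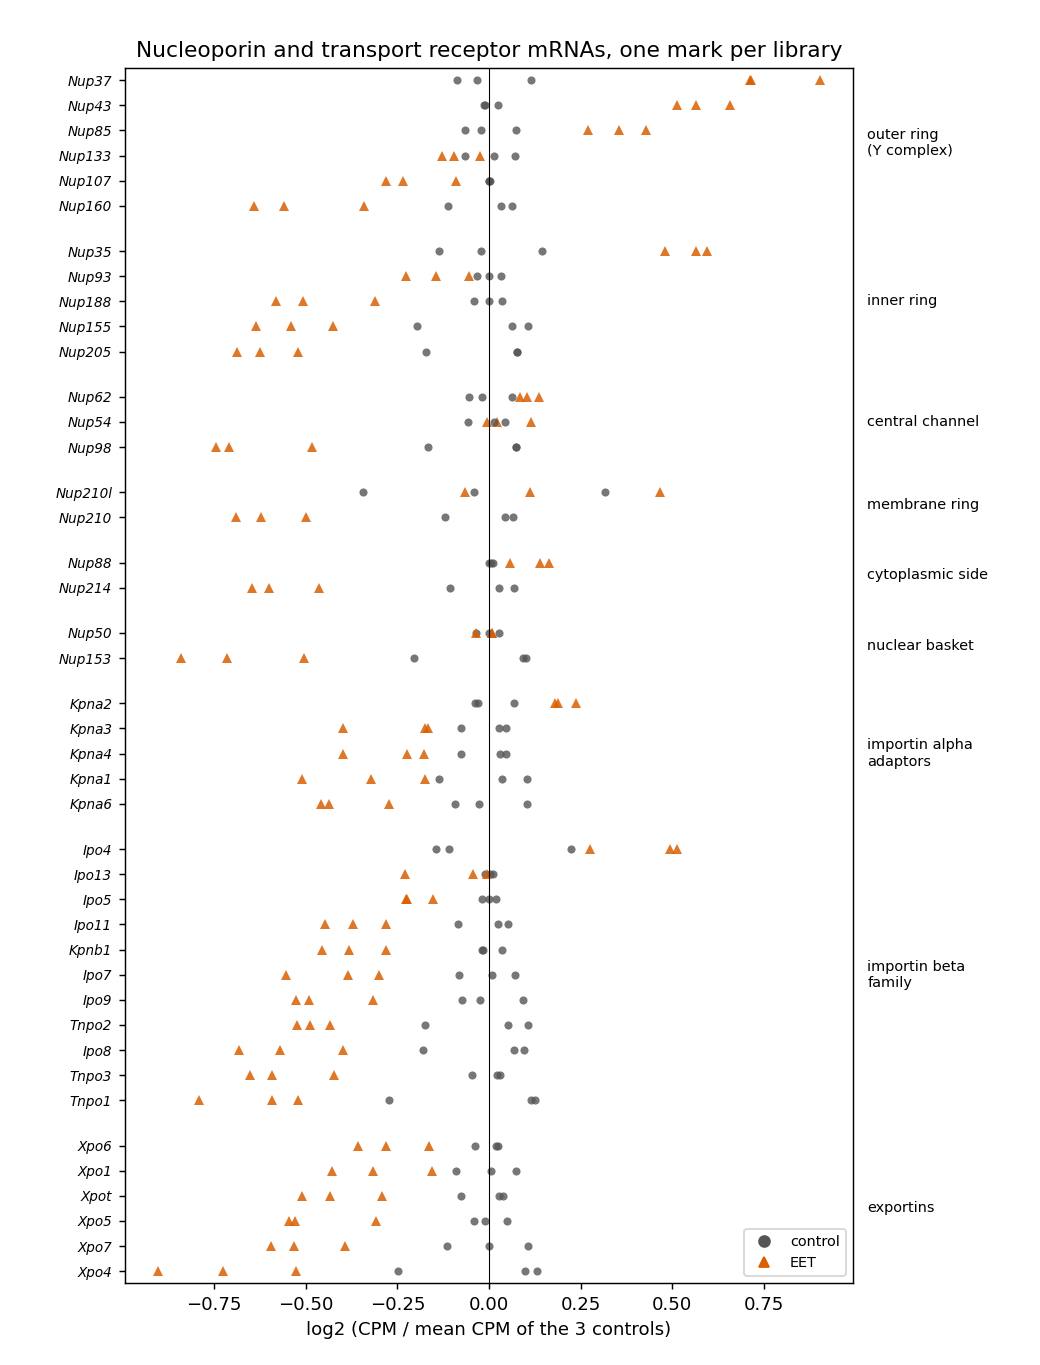
Level of each tested member in every library, as log2 of CPM over the mean of the 3 controls (grey circles control, orange triangles EET), grouped by role. All exportins lie left of the controls, the outer ring spreads to both sides, and Nup37 is farthest to the right.

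The direction followed mRNA length. In these libraries the log2 fold change of protein-coding genes declined with the length of the longest protein-coding transcript (Spearman rho −0.68 across 13811 genes, which are not independent), and it did so among the members (rho −0.78, 42 genes, given as a description). Of 7 members with an mRNA of 2500 bp or less 5 rose and 0 fell, and of 30 members over 4000 bp 27 fell and 0 rose. The same classes of all protein-coding genes had 57.2% higher and 1.93% lower, and 4.46% higher and 58.1% lower. A second fit took out, per library, the dependence on mRNA length and GC content. In it 6 members rose and 10 fell, with 16.2% and 15.2% of all genes called, and the median of the members was −0.05. Its values compare a gene with mRNAs of similar length and composition, and they depend on which transcript stands for a gene. With the median length of a gene's protein-coding transcripts, a choice made after the data were seen, 8 members rose and 16 fell, with 19.8% and 19.2% of all genes called. Against the values as counted the sign of 15 members turned with the trend removed, including the calls of Kpna4 and Xpo7, and that of 10 members on the median length, including the calls of Ipo5, Kpna2 and Kpnb1. The trend-removed count of lower members also rests on single libraries: the 6 receptors became 2 without control 2, control 3 or EET 2 and 3 without EET 1, and the 4 nucleoporins became 2 without control 2 and 1 without EET 2.

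**Figure D2:**
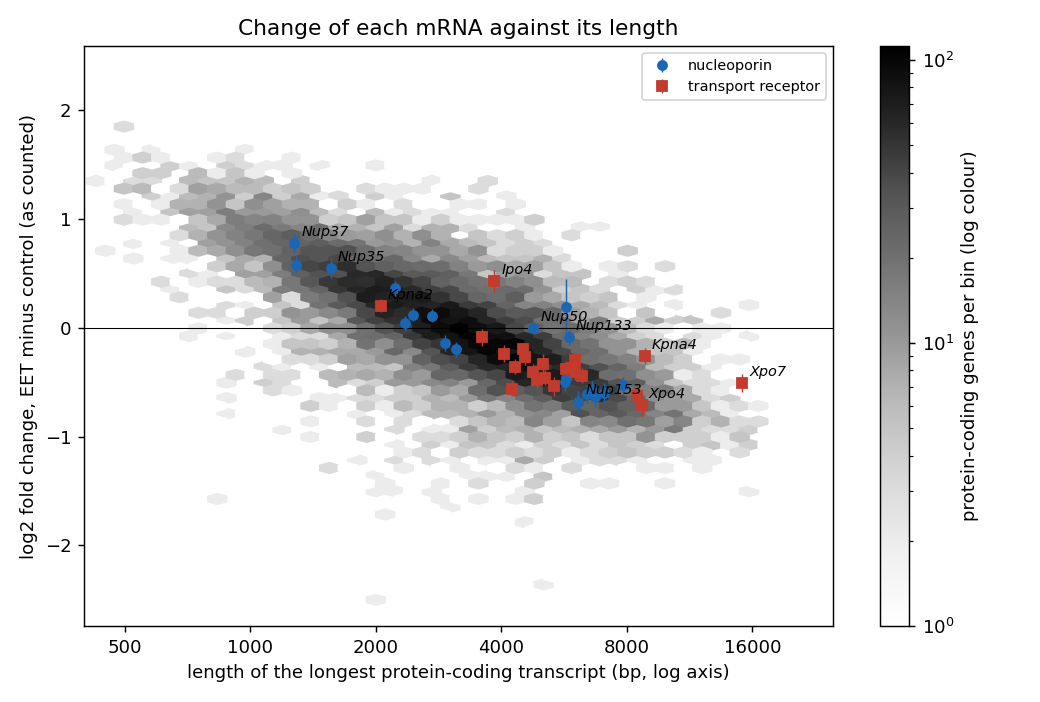
Log2 fold change (EET minus control, as counted) against mRNA length for all tested protein-coding genes (grey bins) and the members (blue circles nucleoporins, red squares receptors, bars SE). The members follow the slope of the other genes, and Ipo4, Nup50, Nup133, Kpna4, Xpo7, Nup85 and the low-level Nup210l are among those above it.

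Ipo8, Nup153, Nup98, Tnpo2, Tnpo3 and Xpo4 were lower in all 3 fits, a result that 8.55% of all genes gave, and no member was higher in all 3. Of these 6, Nup153 and Tnpo3 also kept their calls in the trend-removed fit whichever library was left out (log2 fold change −0.29 to −0.21 and −0.38 to −0.32). Nup98, Xpo4 and Ipo8 lost theirs without control 2, control 3, EET 1 or EET 2, and Tnpo2 without control 2, control 3 or EET 2. Over these fits with fewer libraries their log2 fold changes ran from −0.15 to −0.11, −0.20 to −0.10, −0.23 to −0.16 and −0.25 to −0.14, and their highest adjusted p values were 0.143, 0.25, 0.0965 and 0.157. Exons of other genes overlap those of Ipo8, Tnpo2 and Tnpo3 on the other strand, and those of Tnpo2 and Xpo4 on the same strand. Whether counting used strand is not known, so reads of the overlapping genes may be among their counts.

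**Figure D3:**
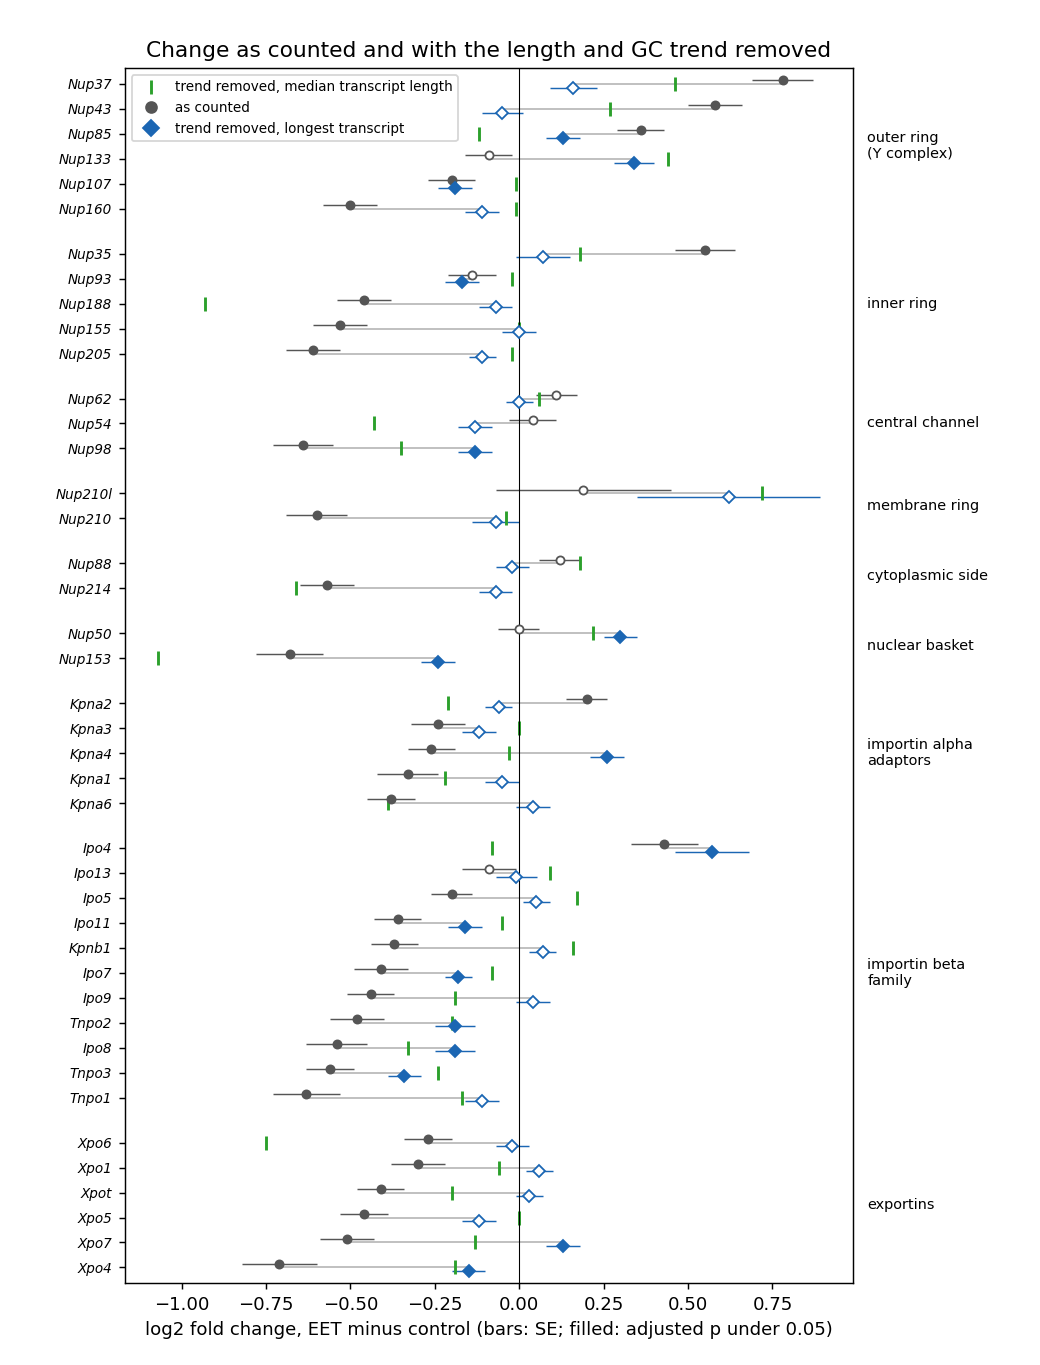
Log2 fold change of each tested member as counted (circles), after removal of the length and GC trend (diamonds) and on the median transcript length (green ticks); bars are SE, and filled circles and diamonds have an adjusted p under 0.05. Nup153 and Tnpo3 stay left of 0 in all 3, while Nup50 and Nup133 are right of 0 once the trend is removed.

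The outer ring split. The members of this Y-shaped complex assemble early when the pore is rebuilt. Of its 6 genes within the naming rule 3 were higher and 2 lower as counted, or 2 and 1 with the trend removed. Their summed level was 569 ± 5.99 CPM in controls and 587 ± 9.15 CPM with EET (mean ± SD, n = 3 each). Left out are Sec13 (106 ± 4.65 and 141 ± 5.82 CPM) and Seh1l (121 ± 2.63 and 119 ± 10.6 CPM), outside the rule. Nup96, made from the Nup98 gene, is left out too, so the sum is not the level of the whole complex. Nup37, a beta-propeller subunit, had the largest rise of any member, with 32.9, 29.7 and 28.6 CPM in control libraries 1 to 3 and 49.8, 56.8 and 49.9 CPM in EET libraries 1 to 3 (GRCm38 chr10:88146992-88178390, plus strand). The groups did not overlap (log2 fold change 0.78 ± 0.09, adjusted p = 8.1e-06), and its mRNA is one of the shortest at 1277 bp. With the trend removed Nup37 was at 0.16 (adjusted p = 0.0864), or 0.46 (adjusted p = 0.000162) on the median transcript length. Without EET replicate 1 it was called higher in the trend-removed fit (adjusted p = 0.0279).

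Nup43, another propeller of the same complex, was at 42.5, 41.5 and 41.4 CPM in the controls and 61.8, 65.9 and 59.6 CPM with EET. Its control libraries were nearly equal and all EET libraries lay higher (0.58 ± 0.08, adjusted p = 2.28e-05), but it was at −0.05 (adjusted p = 0.603) with the trend removed and at 0.27 (adjusted p = 0.00273) on the median transcript length. Nup160, a scaffold subunit with an mRNA of 5684 bp, went the other way, with 123, 136 and 139 CPM in the controls and 85.3, 90.2 and 105 CPM with EET. The EET libraries were all below the controls (−0.50 ± 0.08, adjusted p = 0.000159). After trend removal Nup160 was at −0.11 (adjusted p = 0.085), with a call without EET replicate 3 (adjusted p = 0.0275), and on the median length at −0.01 (adjusted p = 0.894).

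Nup85 rose from 133 ± 6.5 to 169.8 ± 9.3 CPM (0.36 ± 0.07, adjusted p = 0.000602), and its trend-removed call at 0.13 (adjusted p = 0.0329) was lost without control 2, control 3, EET 1 or EET 2 (highest adjusted p = 0.129) and on the median length, where it was at −0.12 (adjusted p = 0.0751). Nup107 fell from 129.9 ± 0.163 to 113 ± 8.01 CPM (−0.20 ± 0.07, adjusted p = 0.029). Its fall as counted was lost without control 2, control 3, EET 1 or EET 2 (log2 fold change −0.25 to −0.16 over the fits without a library, adjusted p up to 0.147). It was called lower with the trend removed at −0.19 (adjusted p = 0.00659), a call lost without EET 2 (adjusted p = 0.0586), and was at −0.01 (adjusted p = 0.886) on the median length. Nup133, which anchors the complex near the membrane, had 101 ± 4.74 CPM in controls and 95.4 ± 3.55 CPM with EET. It did not pass as counted (adjusted p = 0.32), although at 5808 bp it is close to Nup160 in length. After trend removal it was called higher at 0.34 (adjusted p = 0.000336) and kept this call whichever library was left out, and at 0.44 (adjusted p = 0.000295) on the median length it was called as well.

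In the inner ring, the scaffold around the channel, 3 of 5 genes fell and 1 (Nup35) rose as counted, or 1 and 0 with the trend removed. Nup205, one of its largest subunits, was at 246, 292 and 292 CPM in the controls and 172, 179.7 and 193 CPM with EET. Control 1 was the lowest control, still above every EET library (−0.61 ± 0.08, adjusted p = 2.02e-05). Once the trend was removed, Nup205 was at −0.11 (adjusted p = 0.0648), with a call without control 1 (adjusted p = 0.0254), and on the median length at −0.02 (adjusted p = 0.782). Nup155, needed to bind the ring to the membrane, had 137, 164 and 169 CPM in the controls and 101, 108 and 117 CPM with EET. This was a fall without overlap (−0.53 ± 0.08, adjusted p = 0.00012) that came to 4.6e-05 (adjusted p = 0.999) with the trend removed and −0.00094 (adjusted p = 0.992) on the median length.

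Nup35, a small membrane-binding subunit, was at 37.3, 45.3 and 40.4 CPM in the controls and 60.6, 61.9 and 57.2 CPM with EET. All EET libraries were higher (0.55 ± 0.09, adjusted p = 0.000109), and the trend-removed values were 0.07 (adjusted p = 0.539) and, on the median length, 0.18 (adjusted p = 0.086). Nup188 fell from 165 ± 4.53 to 119.9 ± 11.7 CPM and was at −0.07 (adjusted p = 0.295) with the trend removed, but at −0.93 (adjusted p = 0.000117) on the median transcript length. Nup93, the hub that links the ring to the channel, had 137 ± 2.96 and 124 ± 7.47 CPM and did not pass as counted (adjusted p = 0.106). It was called lower with the trend removed at −0.17 (adjusted p = 0.0164), a call lost without control 2 or EET 2 (adjusted p up to 0.117) and on the median length, at −0.02 (adjusted p = 0.784).

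Of the FG nucleoporins of the central channel, Nup98 fell and Nup62 and Nup54 did not pass. Nup98, whose gene also encodes the outer ring subunit Nup96 in the same precursor, was at 188, 222 and 222 CPM in the controls and 126, 129 and 151 CPM with EET. Every EET library was below every control (−0.64 ± 0.09, adjusted p = 2.92e-05), and it was −0.13 (adjusted p = 0.0404) with the trend removed and −0.35 (adjusted p = 0.000256) on the median length. Nup62, which forms the channel's core with Nup54 and Nup58, was at 170.3, 157 and 161 CPM in the controls and 179, 173 and 175 CPM with EET. Its EET libraries lay just above the controls, a difference that did not pass (0.11 ± 0.06, adjusted p = 0.181). It was at 0.00083 (adjusted p = 0.992) with the trend removed and 0.06 (adjusted p = 0.387) on the median length. Nup54 was at 93.2, 86.9 and 91.3 CPM in the controls and 97.9, 91.8 and 90 CPM with EET, and its groups overlapped (0.04 ± 0.07, adjusted p = 0.638). With the trend removed it was at −0.13 (adjusted p = 0.057), with a call without EET replicate 1 (adjusted p = 0.0266), and it was called lower at −0.43 (adjusted p = 3.79e-05) on the median transcript length. Nup98 and Nup62 together show the range in 1 compartment, from a log2 fold change of −0.64 at 6694 bp to 0.11 at 2722 bp.

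Nup210, the large membrane glycoprotein of the pore, was at 37.8, 43 and 42.4 CPM in the controls and 26.7, 25.5 and 29.1 CPM with EET. The groups did not overlap and Nup210 fell (−0.60 ± 0.09, adjusted p = 7.05e-05), but it was at −0.07 (adjusted p = 0.471) with the trend removed and −0.04 (adjusted p = 0.66) on the median length. Its germ cell relative Nup210l had the lowest level of the tested members, at 1.79, 1.45 and 2.29 CPM in the controls and 2.54, 1.76 and 1.99 CPM with EET. Its groups overlapped (0.19 ± 0.26, adjusted p = 0.583). Trend removal put it at 0.62 (adjusted p = 0.0865), and on the median length it was called higher at 0.72 (adjusted p = 0.0446).

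On the cytoplasmic side, Nup214, which docks export complexes, was at 96.6, 109 and 106 CPM in the controls and 68.6, 66.4 and 75.4 CPM with EET, without overlap between groups (−0.57 ± 0.08, adjusted p = 2.99e-05). It was at −0.07 (adjusted p = 0.282) with the trend removed and −0.66 (adjusted p = 9.48e-06) on the median transcript length. Nup88, its partner in the same subcomplex, was at 150.1, 149.5 and 149 CPM in the controls and 164, 167 and 155 CPM with EET. The EET libraries lay above the controls, but Nup88 did not pass (0.12 ± 0.06, adjusted p = 0.143), although it did without control 1 and EET 3 together (adjusted p = 0.0316). For Nup88 these are the libraries nearest the other group. Leaving them out makes the difference larger by construction and is no test of it. It was at −0.02 (adjusted p = 0.747) with the trend removed and was called higher at 0.18 (adjusted p = 0.0159) on the median length.

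The nuclear basket genes differed from each other. Nup153, which binds importins, chromatin and the basket filament (GRCm38 chr13:46679905-46727940, minus strand), had 238, 292 and 294 CPM in control libraries 1 to 3 and 153, 167 and 193 CPM in EET libraries 1 to 3. Control 1 was the lowest control, still above every EET library. Nup153 fell to 0.624 of its control level (−0.68 ± 0.10, adjusted p = 4.63e-05), the steepest fall of any nucleoporin as counted, and stayed lower with the trend removed at −0.24 (adjusted p = 0.00116) and on the median length at −1.07 (adjusted p = 0.00268). Nup50, a mobile basket nucleoporin that helps release importin alpha cargo, was at 168, 161 and 165 CPM in the controls and 166, 161 and 166 CPM with EET. These libraries overlapped fully (−0.0017 ± 0.06, adjusted p = 0.985). With an mRNA of 4766 bp and the trend removed, Nup50 was called higher at 0.30 (adjusted p = 0.000167), whichever library was left out, and at 0.22 (adjusted p = 0.00395) on the median length.

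Importin alpha adaptors split by gene, with 4 of 5 lower and Kpna2 higher as counted, where 23.3% of all genes were lower and 24.6% higher. With the trend removed 0 were called lower and 1 higher. Kpna6 (importin alpha 7) was at 152, 174 and 159 CPM in the controls and 119.8, 118 and 134 CPM with EET. It fell without overlap (−0.38 ± 0.07, adjusted p = 0.000588) and was at 0.04 (adjusted p = 0.592) with the trend removed, but it was called lower at −0.39 (adjusted p = 0.00025) on the median length. Kpna1 (importin alpha 5) was at 111, 125 and 131 CPM in the controls and 85.6, 97.6 and 108 CPM with EET, again with all EET libraries below the controls (−0.33 ± 0.09, adjusted p = 0.00662), and at −0.05 (adjusted p = 0.53) with the trend removed. On the median length Kpna1 was called lower at −0.22 (adjusted p = 0.0215). Kpna4 (importin alpha 3) had 204, 222 and 219.7 CPM in the controls and 163, 184 and 190.2 CPM with EET. It fell as counted (−0.26 ± 0.07, adjusted p = 0.00766), but its longest mRNA is 8819 bp and with the trend removed it was called higher at 0.26 (adjusted p = 0.000369), or −0.03 (adjusted p = 0.626) on the median length. Kpna3, the closest relative of Kpna4, fell from 212 ± 9.96 to 179 ± 15.9 CPM (−0.24 ± 0.08, adjusted p = 0.0147), a call lost without control 2, control 3 or EET 1 (adjusted p up to 0.0829). It was at −0.12 (adjusted p = 0.0506) with the trend removed and −0.0019 (adjusted p = 0.981) on the median length.

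Kpna2 (importin alpha 1), the form typical of proliferating cells, rose from 351 ± 14.3 to 404 ± 8.42 CPM (0.20 ± 0.06, adjusted p = 0.0163), also without overlap. That call was lost without control 2, control 3 or EET 2 (adjusted p up to 0.0915). Kpna2 was at −0.06 (adjusted p = 0.272) with the trend removed and was called lower at −0.21 (adjusted p = 0.00396) on the median length. Transcripts of 5 other loci match its mRNA at 95% identity or more over at least 300 bp, so its level is uncertain. Nup35, Nup54, Tnpo1, Xpo4 and Xpot have 1 such copy each. Exons of another gene overlap those of 10 tested members on the other strand and of 8 on the same strand, and the sources used here do not say whether counting used strand.

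Of the import receptors of the beta family 9 of 11 fell and Ipo4 rose as counted, where 23.3% of all genes were lower and 24.6% higher. With the trend removed 5 were called lower and 1 higher, beside 15.2% and 16.2% of all genes. Tnpo3 (transportin 3), which imports SR splicing factors (GRCm38 chr6:29540827-29609887, minus strand), was at 181, 189.9 and 191 CPM in the controls and 119, 124 and 139.5 CPM with EET. No EET library reached the lowest control (−0.56 ± 0.07, adjusted p = 2.28e-05). It stayed lower with the trend removed at −0.34 (adjusted p = 1.7e-05), the smallest adjusted p of that fit among the members, and on the median length at −0.24 (adjusted p = 0.00152). Exons of Irf5 on the other strand overlap Tnpo3, and without strand the reads of the 2 cannot be told apart. Ipo8, which imports proteins such as SMADs, had 85.1, 103 and 101 CPM in the controls and 60.1, 65 and 73.1 CPM with EET and fell without overlap (−0.54 ± 0.09, adjusted p = 0.000174). Its trend-removed value was −0.19 (adjusted p = 0.0151), or −0.33 (adjusted p = 0.0015) on the median length.

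Tnpo1 (transportin 1), which imports proteins with a PY signal such as hnRNPs, was at 445, 583 and 587 CPM in the controls and 311, 357 and 375 CPM with EET. Control 1 lay well below the other 2 controls but above every EET library (−0.63 ± 0.10, adjusted p = 0.000179). With the trend removed Tnpo1 was at −0.11 (adjusted p = 0.103), with a call without control 1 (adjusted p = 0.00809), and on the median length at −0.17 (adjusted p = 0.039). Kpnb1 (importin beta 1), the main carrier of classical import, fell from 1321 ± 28.4 to 1021 ± 62.9 CPM (−0.37 ± 0.07, adjusted p = 0.000317), and with the trend removed it was at 0.07 (adjusted p = 0.271) but was called higher at 0.16 (adjusted p = 0.0244) on the median length. Ipo7 fell from 847 ± 45 to 638 ± 56.7 CPM (−0.41 ± 0.08, adjusted p = 0.000399) and Ipo5 from 773 ± 10.2 to 673 ± 19.9 CPM (−0.20 ± 0.06, adjusted p = 0.014), both importers of ribosomal proteins among other cargo. Ipo5 lost its call without control 2, EET 1 or EET 2 (adjusted p up to 0.072), was at 0.05 (adjusted p = 0.437) with the trend removed and was called higher at 0.17 (adjusted p = 0.0185) on the median length. Ipo7 was called lower with the trend removed at −0.18 (adjusted p = 0.00252) whichever library was left out, but on the median length it was at −0.08 (adjusted p = 0.194).

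Ipo9 and Ipo11 fell by 0.44 and 0.36 on the log2 scale and Tnpo2 by 0.48, while Ipo13 did not pass (−0.09 ± 0.08, adjusted p = 0.363). Ipo13 was at −0.0085 (adjusted p = 0.932) with the trend removed and 0.09 (adjusted p = 0.306) on the median length, and Tnpo2 was called lower at −0.19 (adjusted p = 0.0202) and −0.20 (adjusted p = 0.0247). Once the trend was removed, Ipo11 was at −0.16 (adjusted p = 0.0216), lost without control 2, control 3, EET 1 or EET 2 (adjusted p up to 0.0969), and Ipo9 was at 0.04 (adjusted p = 0.576). On the median length they were at −0.05 (adjusted p = 0.524) and −0.19 (adjusted p = 0.012). Ipo4, an importer of histones and ribosomal proteins, rose from 66.5 ± 9.61 to 89.6 ± 7.92 CPM, without overlap (0.43 ± 0.10, adjusted p = 0.00231). After trend removal Ipo4 was at 0.57 (adjusted p = 0.00645) and on the median transcript length at −0.08 (adjusted p = 0.372).

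All 6 exportins fell as counted. All have mRNAs over 4000 bp, a class in which 58.1% of all protein-coding genes were lower and 4.46% higher. With the trend removed 1 exportin was called higher and 1 lower. Xpo4, which exports eIF5A and SMAD3, was at 133, 169 and 173 CPM in the controls and 84.5, 95.6 and 109.8 CPM with EET, the steepest fall of any member (−0.71 ± 0.11, adjusted p = 0.00012). Control 1 was lowest among controls and EET 3 highest among EET libraries, and they did not meet. Xpo4 stayed lower at −0.15 (adjusted p = 0.0438) with the trend removed and −0.19 (adjusted p = 0.0211) on the median length. Xpo5, which exports precursor miRNAs, had 247, 263 and 252 CPM in the controls and 176, 174 and 205 CPM with EET (−0.46 ± 0.07, adjusted p = 0.000132). It was at −0.12 (adjusted p = 0.0552) with the trend removed, with a call without EET replicate 3 (adjusted p = 0.0155), and at 0.00063 (adjusted p = 0.994) on the median length. Xpo7, a receptor for structured cargo, was at 159, 185 and 172 CPM in the controls and 114, 119 and 131 CPM with EET. It fell as counted (−0.51 ± 0.08, adjusted p = 7.77e-05), and its longest transcript of 15121 bp is the longest of any member. With the trend removed Xpo7 was called higher at 0.13 (adjusted p = 0.0375), lost without control 2, control 3, EET 1 or EET 2 (adjusted p up to 0.154), and it was at −0.13 (adjusted p = 0.062) on the median length.

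Xpo1 (CRM1), the receptor for leucine-rich export signals, fell from 517 ± 29.2 to 421 ± 40.4 CPM (−0.30 ± 0.08, adjusted p = 0.0053), Xpot, the tRNA exporter, from 256 ± 11.3 to 193 ± 15 CPM (−0.41 ± 0.07, adjusted p = 0.000276) and Xpo6, the actin exporter, from 187 ± 4.66 to 156 ± 10.4 CPM (−0.27 ± 0.07, adjusted p = 0.0047). After trend removal these 3 were at 0.06, 0.03 and −0.02, and none was called (adjusted p = 0.266, 0.641 and 0.764). On the median length Xpo1 was at −0.06 (adjusted p = 0.417), while Xpot and Xpo6 were called lower at −0.20 (adjusted p = 0.00508) and −0.75 (adjusted p = 5.91e-05).

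Levels were compared between genes as CPM per kb of the longest mRNA. In controls Kpnb1 was highest at 224 ± 4.82, followed by Ipo7 at 178 ± 9.44, Kpna2 at 171 ± 6.95 and Ipo5 at 171 ± 2.25 CPM per kb (mean ± SD, n = 3). The last 3 did not differ beyond their spread. Xpo1 was next at 86.1 ± 4.87 CPM per kb, and Tnpo1, Nup88, Nup62 and Nup85 followed at 59.5 to 63.7. Nup210 (5.83 ± 0.408) and Nup210l (0.322 ± 0.0743) were lowest of the tested members. With EET Kpna2 (197 ± 4.1) was above Kpnb1 (173 ± 10.7). The ratio of Kpna2 to Kpnb1 per length was 0.81, 0.729 and 0.752 in the controls and 1.19, 1.17 and 1.05 with EET, which did not overlap. These mRNAs differ in length (2054 and 5894 bp), and the log2 fold changes of Kpna2 and Kpnb1 were −0.06 and 0.07 with the trend removed, or −0.21 and 0.16 on the median length, where the order of the changes is the reverse.

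**Figure D4:**
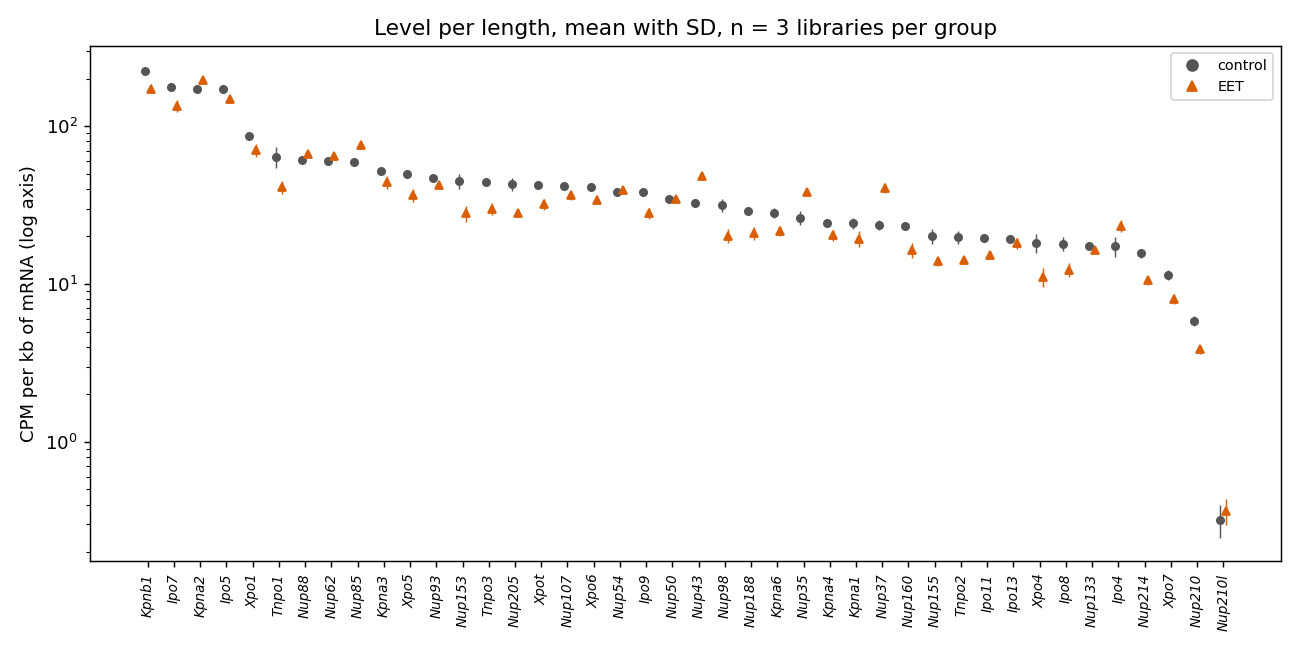
Level of each tested member per kb of mRNA (log axis) in control (grey) and EET (orange) libraries, mean with SD, n = 3, ordered by the control level. Kpnb1, Ipo7, Kpna2 and Ipo5 stand at the top and Nup210l at the bottom, and Kpna2 is the highest with EET.

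Over all tested genes 24.6% were higher and 23.3% lower as counted, and 16.2% and 15.2% with the trend removed, which is the background for the related lists. Of 13 tested pore genes outside the naming rule, 4 fell and 3 rose as counted, with a median of 0.0049. The counts were the same after trend removal, but the genes were not. Sec13, Rae1 and Aaas were higher as counted, and Ndc1, Gle1 and Tmem33 with the trend removed. Sec13 turned from higher (0.42 ± 0.07, adjusted p = 0.000141) to lower (−0.19, adjusted p = 0.00656). Ahctf1 was lower as counted and lost its call (−0.05, adjusted p = 0.372). Ranbp2 (Nup358), the giant nucleoporin of the cytoplasmic filaments, was at 338, 398 and 392 CPM in the controls and 176, 205 and 237 CPM with EET (−0.87 ± 0.10, adjusted p = 1.05e-05). Tpr, which forms the basket filaments, was at 444, 499 and 483 CPM in the controls and 285, 266 and 321 CPM with EET (−0.71 ± 0.08, adjusted p = 5.99e-06). For both, every EET library was below every control, and both stayed lower with the trend removed, at −0.32 (adjusted p = 2.67e-05) and −0.17 (adjusted p = 0.00967).

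Of 7 tested genes of the Ran cycle 5 rose and 0 fell, or 3 and 1 with the trend removed. Ran itself was at 769, 704 and 669 CPM in the controls and 1328, 1326 and 1162 CPM with EET (0.83 ± 0.08, adjusted p = 1.73e-06). It rose without overlap and, with an mRNA of 2423 bp, was at 0.69 (adjusted p = 4.41e-08) with the trend removed. Ranbp1, a cofactor of Ran-GTP hydrolysis, was at 146, 126 and 127 CPM in the controls and 288, 271 and 222 CPM with EET (0.97 ± 0.09, adjusted p = 2.64e-06) and at 0.20 (adjusted p = 0.00289) with the trend removed.

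Among 7 receptors and adaptors outside the rule 4 rose and 2 fell, or 2 and 1 with the trend removed. Hikeshi, which imports Hsp70 proteins, was at 23.6, 25.2 and 18.1 CPM in the controls and 43.7, 41.2 and 35.7 CPM with EET (0.85 ± 0.12, adjusted p = 4.45e-05) and stayed higher at 0.60 (adjusted p = 0.000931). Nmd3, the export adaptor of the large ribosomal subunit, was at 94.2, 93.4 and 95.5 CPM in the controls and 132, 135 and 115 CPM with EET (0.43 ± 0.07, adjusted p = 0.000221), and its trend-removed value of 0.95 (adjusted p = 0.00842) rests on a longest transcript of 9135 bp.

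Of 23 genes of mRNA export 11 rose and 3 fell as counted, and 11 and 4 with the trend removed. These were not all the same genes. Thoc3, Thoc7 and Sarnp were higher only as counted, and Nxf1, Thoc1 and Ddx19b only with the trend removed. Mcm3ap was lower only as counted, and Nxt2 and Ddx19a only with the trend removed. Nxt1, the small partner of the mRNA export receptor Nxf1, was at 22.1, 17.6 and 18.3 CPM in the controls and 48, 51.4 and 43.3 CPM with EET (1.30 ± 0.10, adjusted p = 9.99e-07), and at 0.54 (adjusted p = 2.34e-05) with the trend removed. Sem1, a small subunit of the TREX-2 export complex and of the proteasome, was at 16.5, 19.2 and 16.1 CPM in the controls and 53.5, 54.6 and 38.6 CPM with EET (1.50 ± 0.13, adjusted p = 1.35e-06), and at 1.03 (adjusted p = 2.03e-06) with the trend removed. Both rose without overlap. The lowest value of the list was that of Zc3h11a, an export factor (−1.79 ± 0.19, adjusted p = 8.22e-06), named after its values were seen.

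Of 14 genes of the lamina and nuclear envelope 3 rose and 7 fell, or 3 and 6 with the trend removed. Only Banf1 was higher in both fits. Emd and Lemd2 were higher only as counted, and Lmnb2 and Tmpo only with the trend removed. Lemd3 lost its lower call. Syne2 (nesprin 2), which ties the nucleus to the cytoskeleton, was at 61.8, 83.5 and 78.3 CPM in the controls and 35.1, 32.1 and 40 CPM with EET (−1.06 ± 0.11, adjusted p = 5.53e-06). Banf1, a small chromatin-binding protein of the inner envelope, was at 144, 123 and 121 CPM in the controls and 268, 249 and 213 CPM with EET (0.91 ± 0.09, adjusted p = 3.62e-06). Their mRNAs are 21704 and 1261 bp, and the calls of both held after trend removal, at −0.40 (adjusted p = 0.00115) and 0.24 (adjusted p = 0.000502).

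**Figure D5:**
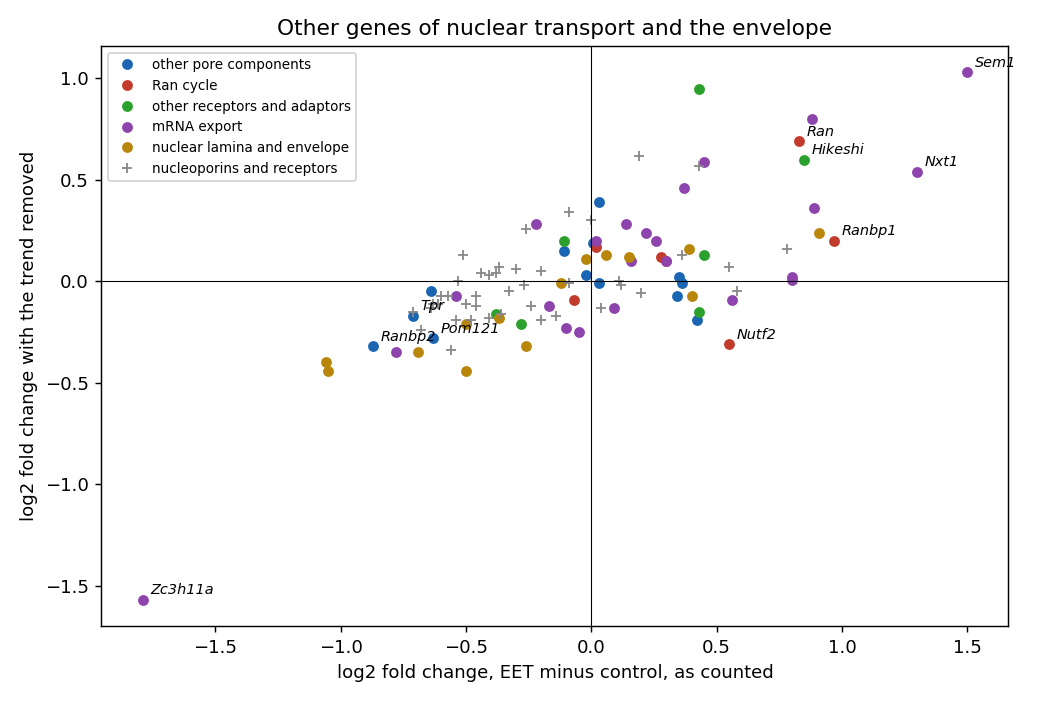
Log2 fold change as counted (x axis) and after removal of the length and GC trend (y axis) for the other genes of nuclear transport and the envelope (coloured by list) and for the members (grey crosses). Ran, Hikeshi, Nxt1 and Sem1 are high on both axes, Ranbp2, Pom121 and Tpr low on both, Zc3h11a is lowest on both, and Nutf2 is high as counted and below 0 with the trend removed.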

How the data were processed

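Counts per gene in 6 libraries (3 control, 3 EET) were taken as deposited by the authors. Per the submitters' processing notes, FastQC, cutadapt, DESeq2 and the build GRCm38 were used; the aligner, the counter, its annotation and use of strand were not given in the sources used here. Between 61.3% and 65.6% of the counts from 11 to 50 were even.

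Genes passing edgeR's filter (16097) were scaled by TMM and tested with edgeR 4.0.16's quasi-likelihood test in R 4.3.3 with robust estimation and Benjamini-Hochberg adjustment over all of them, calling genes with an adjusted p under 0.05. SE is the absolute log2 fold change over the square root of F. A second fit removed each library's trend with log2 length and GC percent of the longest protein-coding transcript (GENCODE M21; robust loess, span 0.3, protein-coding genes) as an offset. Both were also run on counts simulated without a length or GC trend. Such counts cannot show how well the second fit removes a trend, and nothing is drawn from them here. DESeq2, limma-voom, other scalings and filters, counts divided by 2 and fits without each library were alternatives. Values in every library are given for the 3 members with the smallest p in each role and for those whose call turned, and the 2 genes with the smallest p in each other list are named. Members, roles and lists were chosen with earlier results of these data known. Same-numbered control and EET libraries did not deviate together (r = −0.00347, −0.0501 and 0.00893), so the fits have no replicate block. A copy is a transcript of another locus matching at 95% identity or more over at least 300 bp.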

Additional observations from a re-analysis of the deposited data

How the results depend on the processing

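As counted, 4 nucleoporins rose and 9 fell, and 2 receptors rose and 19 fell. Leaving out 1 library gave 4 to 4, 8 to 9, 1 to 2 and 17 to 19, with 1 receptor higher also under library totals alone. Removing the length and GC trend left 4 nucleoporins and 6 receptors lower. With the median transcript length, an alternative chosen after seeing the data, 5 nucleoporins and 11 receptors were lower and 6 nucleoporins higher. Within the trend-removed fit, leaving out 1 library gave 2 to 3 nucleoporins higher, 1 to 5 lower, 2 to 3 receptors higher and 2 to 7 lower. Each such fit has fewer libraries. The libraries share only a replicate number. With it as a replicate block 10 nucleoporins and 19 receptors fell as counted, and 6 and 8 with the trend also removed. The shares of all genes called with the block are not given here, so these counts have no background. Scaling, filter, test and halved counts changed no other of these counts by over 1.5 times.

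Among the 42 tested members the sign turned for 15 with the trend removed: Ipo5 (0.05), Ipo9 (0.04), Kpna2 (−0.06), Kpna4 (0.26), Kpna6 (0.04), Kpnb1 (0.07), Nup133 (0.34; 0.35 with the replicate block), Nup155 (4.6e-05; 0.00035 with the replicate block), Nup43 (−0.05), Nup50 (0.30), Nup54 (−0.13), Nup88 (−0.02), Xpo1 (0.06), Xpo7 (0.13) and Xpot (0.03). The other values were equal with the replicate block to 2 decimals. With the block and the trend removed Kpna3 (adjusted p = 0.0301), Nup205 (0.0475), Nup54 (0.0377) and Xpo5 (0.0392) were called lower, and with the block as counted Nup93 (0.0461). Without control 1 and EET 3 together Nup62 (0.0408) and Nup88 (0.0316) were called higher and Nup93 (0.0431) lower. For Nup88 these were the libraries nearest the other group, so its call there is no test of a rise. On the median length the sign turned for 10 against the values as counted: Ipo13 (0.09), Ipo4 (−0.08), Ipo5 (0.17), Kpna2 (−0.21), Kpnb1 (0.16), Nup133 (0.44), Nup50 (0.22), Nup54 (−0.43), Nup85 (−0.12) and Xpo5 (0.00063). Ipo4, Nup85, Kpna4 (−0.03) and Xpo7 (−0.13), called higher with the trend removed, turned in sign on the median length but were not called there. The cause was not tested. Depth limits Nup210l, under 1 CPM per kb.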
